A study of Rattus norvegicus with 6 samples.

Results

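Matrix metalloproteinases (MMPs), ADAM and ADAMTS proteases and their tissue inhibitors (TIMPs) were followed in rat primary astrocytes given β-hydroxybutyrate (BHB), a ketone body. Genes were taken by symbol from the deposited table, as Mmp, Adam or Adamts followed by a number, plus Timp2, Timp3 and Timp4. This gave 71 of the 22608 genes listed, namely 23 Mmp, 26 Adam, 19 Adamts and 3 Timp genes. The control group was 3 libraries of primary brain astrocytes labelled Control, and the treated group was 3 libraries of the same cells labelled BHB, with 2 mM in the column names. No genotype, strain, age or treatment time is given in the sources used here, and the labels do not tell cultures or animals apart. Each p-value therefore reflects the scatter of these libraries alone, which may be technical. Values are FPKM, that is fragments scaled to gene length and library size, so levels can be set side by side between genes.

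MMPs and ADAMTS enzymes cut collagens, proteoglycans and other matrix proteins outside the cell, while ADAM proteases mostly sit in the cell membrane and release the outer parts of growth factors, adhesion proteins and receptors. The active enzymes use a zinc ion for catalysis and are made as inactive proenzymes, and many of them are held back by TIMPs. In brain, astrocytes are one source of these enzymes and inhibitors, which take part in remodelling of the matrix around synapses, in Notch and EGF receptor signalling and in processing of the amyloid precursor protein.

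The table summed to between 354565 and 367448 FPKM a library, the number of reads is unknown, and library correlations over tested genes were 0.990 to 0.993. The astrocyte label was checked with 8 markers, all above 1 FPKM, with Gfap at 1438 and Aqp4 at 58.6 FPKM in controls. Fibroblast and mural markers were also present, with Tagln at 3030, Acta2 at 1285 and Col1a2 at 270.9 FPKM in controls, while Dcn was at a mean of 0.0108 FPKM. Some neuron and oligodendrocyte lineage markers were present too, with Stmn2 at 54.8, Tubb3 at 18.4 and Olig1 at 24.8 FPKM in controls. Others were low there, with Rbfox3 at 0.392 and Sox10 at 0.260 FPKM. The 5 endothelial markers summed to 0.791 to 1.26 FPKM in controls. The 8 fibroblast and mural markers summed to 4482 to 4857 FPKM in controls and 4635 to 5020 FPKM with BHB, the 8 astrocyte markers to 4461 to 4698 and 4858 to 4877 FPKM, with Slc1a3 at 202.7 and 455.2 FPKM past the test, and the 8 microglial markers to 44.4 to 48.6 and 43.5 to 45.8 FPKM. Of the microglial markers 2 lay above and 6 below 0 on the log2 scale, and none passed. Cx3cr1 was lower (means 5.84 and 4.66 FPKM, limma adjusted p = 0.881) and Aif1 higher (4.87 and 5.22 FPKM, 0.910) in all BHB libraries. Over all tested genes 51.5% lay above 0. Which cells gave the protease transcripts was not tested, and in such bulk samples fewer cells of a type and less RNA per cell cannot be told apart.

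The family fell into a well expressed set and a set near or at 0. Of the 71 genes, 32 had a mean of 1 FPKM or more in a group, 19 were detected but averaged under 1 FPKM in control and in BHB, and 20 were listed at 0 in all 6 libraries. The expressed set held Timp2, Timp3 and Timp4, 9 of 23 Mmp, 8 of 26 Adam and 12 of 19 Adamts genes. A gene was tested where at least 3 of the 6 libraries reached 1 FPKM, which 32 genes did, and 31 of these reached it in all 6. The remaining one was Adam8, a leukocyte-associated sheddase, which reached it in 2 libraries of each group, and Adam1a, with a BHB mean of 1.09 FPKM, was not tested. BHB left no member past the test: limma called 0 of the 32 at an adjusted p under 0.05, against 7 of 12373 tested genes (0.0566%).

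Of 12 Mmp genes under 1 FPKM with a promoter entry, 6 held a pair of motifs, and the sequences of these 6 are shown first. The pair was found in 0 of the 5 expressed Mmp genes that had an entry, out of 9 expressed Mmp genes. Promoters came from RefSeq (build GRCr8, a later build than the rn6 that the submitters' processing notes name) and span 250 bases before to 50 bases after the annotated start. They were found for 47 of the 71 genes. The expressed Mmp14, Mmp19, Mmp2 and Mmp16 and the low Mmp9 and Mmp17 had no entry, so they were not searched. Each promoter found was searched for the AP-1 motif TGAGTCA on both strands, and for the TATA motif TATAAA on the gene's strand, both ahead of the start. The pair is a textbook feature of inducible MMP genes. The 6 genes below held both motifs, in capitals, with the TGACTCA of Mmp13 being the AP-1 motif on the other strand. They are the stromelysins Mmp3 and Mmp10, the collagenases Mmp13 and Mmp1, the macrophage elastase Mmp12 and the matrilysin Mmp7, and each line runs from 95 to 21 bases before the start, 5′ to 3′.
Mmp3, chr8:12925186-12925260, plus strand: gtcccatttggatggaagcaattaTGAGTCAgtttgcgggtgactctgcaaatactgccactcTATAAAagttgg
Mmp10, chr8:12974612-12974686, plus strand: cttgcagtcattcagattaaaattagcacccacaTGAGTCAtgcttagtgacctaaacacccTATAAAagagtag
Mmp13, chr8:12782734-12782808, plus strand: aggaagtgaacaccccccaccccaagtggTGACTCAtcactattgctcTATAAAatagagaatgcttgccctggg
Mmp1, chr8:12943358-12943432, plus strand: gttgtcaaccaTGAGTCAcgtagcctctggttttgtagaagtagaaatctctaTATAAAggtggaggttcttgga
Mmp12, chr8:12866557-12866631, plus strand: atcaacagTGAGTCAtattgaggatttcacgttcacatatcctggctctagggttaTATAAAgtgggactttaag
Mmp7, chr8:13132948-13133022, plus strand: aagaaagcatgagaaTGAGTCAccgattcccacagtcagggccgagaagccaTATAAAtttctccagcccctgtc

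Beside them stand the same windows of 2 expressed genes, the membrane-bound protease gene Mmp15 and the inhibitor gene Timp2, chosen after their values were seen, which held neither motif.
Mmp15, chr19:9691021-9691095, minus strand: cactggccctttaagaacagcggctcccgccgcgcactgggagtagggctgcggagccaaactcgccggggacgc
Timp2, chr10:104089235-104089309, minus strand: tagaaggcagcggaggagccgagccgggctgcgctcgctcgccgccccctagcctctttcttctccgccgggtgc

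Mmp3, Mmp10, Mmp1 and Mmp7 were listed at 0 in all 6 libraries. Mmp13 was at 0.0228 FPKM in control 3 and at 0 in the other 5 libraries, and Mmp12 was at 0, 0.0353 and 0.0313 FPKM in controls 1 to 3 and at 0, 0 and 0.0359 FPKM in BHB 1 to 3. The AP-1 match of these 6 genes began 61 to 87 bases and the nearest TATA match 32 to 47 bases before the start. All 6 lie in one cluster on chromosome 8 and are related by sequence, so they are not independent of each other.

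Across the promoters found, both motifs occurred in 6 of 23 members averaging under 1 FPKM in control and in BHB. Of the 11 among these listed at 0 in all libraries 4 held both, and of the 24 expressed members 0 did. The share was 0.400% of the 33469 promoters in the table, 1.56% of the 1795 table genes listed at 0 in all libraries and 0.155% of the 9048 tested genes with a promoter. With so low a share in tested genes, 0 of 24 does not set the expressed members apart. Any AP-1 match, with or without TATA, was in 4.05% and any TATA match in 8.06% of all promoters. Among expressed members, Adam19 had an AP-1 match, 169 bases before the start, and Adamts1 a TATA match, 70 bases before it. Median GC content was 67.5% for the 24 expressed members, 53.5% for the 12 detected under 1 FPKM and 40.0% for the 11 listed at 0. Over the whole table it was 61.3% for tested genes and 47.7% for genes at 0 throughout. A match is a description of letters, not a binding site. In the same fit Fosb and Fos, which encode AP-1 subunits, passed with log2 fold changes of 1.34 and 0.57 (limma adjusted p = 0.00258 and 0.0402). Fosb was at 0.179, 0.315 and 0.333 FPKM in controls and at 2.02, 2.39 and 2.31 FPKM with BHB. It met the FPKM minimum through the BHB libraries alone, and its log2 fold change ran from 1.23 to 2.66 over the alternatives. A link of either gene to the motifs was not tested. The call of Fos ended without any single library (adjusted p 0.0555 to 0.175), without the FPKM minimum (0.339), without the intensity trend (0.0715) and with the replicate block (0.230).

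**Figure D1:**
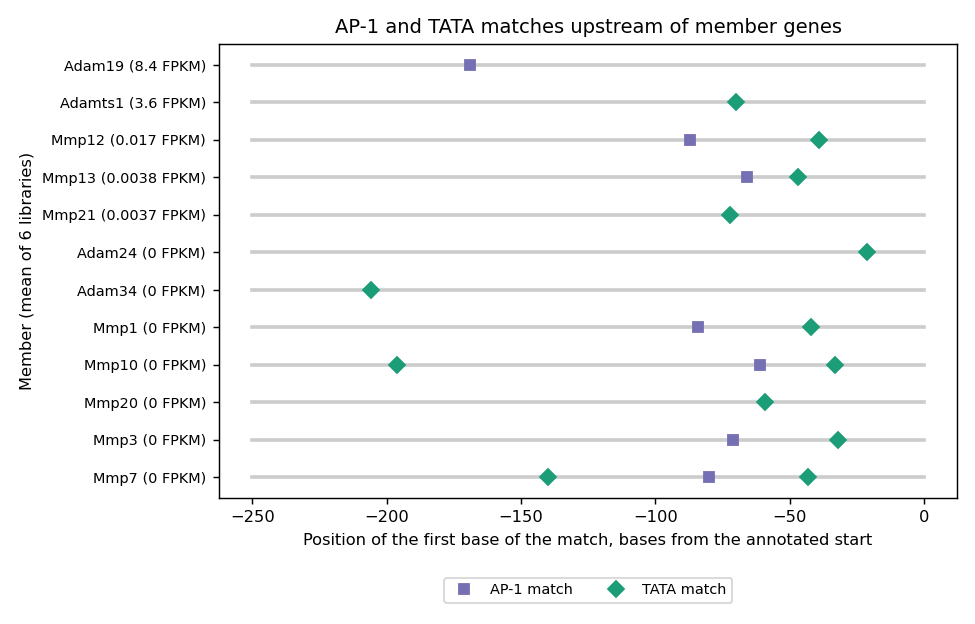
First bases of AP-1 (squares) and TATA (diamonds) matches in the 250 bases before the annotated start (horizontal axis, bases) of the 12 member genes with a match, ordered by mean FPKM over the 6 libraries. Mmp3, Mmp10, Mmp13, Mmp1, Mmp12 and Mmp7 hold an AP-1 match ahead of a TATA match, and each is at or near 0 FPKM.

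Timp2 was the most abundant transcript of the 71 genes, followed by Timp3 and Mmp14 at levels close to each other. Timp2, which blocks MMPs and also helps Mmp14 to activate pro-MMP2, stood at 334.8, 333.1 and 324.8 FPKM in controls 1 to 3 and at 325.5, 341.5 and 353.9 FPKM in BHB 1 to 3, and ranked 123 of 12373 tested genes by mean level. BHB 3 was the highest library and control 3 the lowest, and the groups overlapped. Timp3, a matrix-bound inhibitor that also acts on ADAM17 and on aggrecan-cutting ADAMTS enzymes, stood at 196.1, 188.8 and 193.4 FPKM in controls and at 183.3, 191.4 and 182.9 FPKM with BHB. BHB 1 and BHB 3 were the lowest libraries, while BHB 2 lay within the controls. The log2 fold changes were 0.04 (95% interval -0.06 to 0.14) for Timp2 and -0.05 (-0.14 to 0.04) for Timp3, on the log2(FPKM + 1) scale used throughout, with a limma adjusted p of 0.918 and 0.898.

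Timp4, an inhibitor found at high levels in heart and in some brain cells, was far less abundant and had the largest difference of the tested members. It stood at 2.31, 2.02 and 2.20 FPKM in controls 1 to 3 and at 1.01, 1.57 and 1.83 FPKM in BHB 1 to 3. All 3 BHB libraries lay below all 3 controls, and BHB 1 stood apart from BHB 2 and BHB 3. The means were 2.18 ± 0.144 and 1.47 ± 0.419 FPKM (SD, n = 3 each), a ratio of 0.675. The log2 fold change was -0.38 (SE 0.128, 95% interval -0.67 to -0.08), with an unadjusted p of 0.0179 and a limma adjusted p of 0.881 over all genes tested, so it did not pass. Its size was -0.24 without BHB 1 and -0.57 with a pseudocount of 0.1 in place of 1.

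Among membrane-bound MMPs, Mmp14 (MT1-MMP), which cuts collagen at the cell surface and activates pro-MMP2, was by far the most abundant. It stood at 186.0, 183.1 and 183.6 FPKM in controls 1 to 3 and at 182.5, 189.8 and 191.7 FPKM in BHB 1 to 3. BHB 1 was the lowest library and BHB 2 and BHB 3 the highest, so the groups overlapped. The ratio of means was 1.02 and the log2 fold change 0.03 (95% interval -0.06 to 0.12, limma adjusted p = 0.934). Mmp14 made up 65.2% to 66.7% of the summed MMP FPKM in each library.

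Mmp15 (MT2-MMP) stood at 19.4, 20.1 and 19.2 FPKM in controls and at 18.8, 19.1 and 20.9 FPKM with BHB, and the fitted log2 difference was 0.002 (95% interval -0.13 to 0.13; adjusted p = 0.997 in limma). The lowest and the highest library were both BHB libraries. Mmp24 (MT5-MMP), a neural membrane protease, had means of 4.55 and 4.95 FPKM in controls and BHB, and Mmp16 (MT3-MMP) had 3.68 and 3.97 FPKM. All 4 tested membrane-bound genes lay above 0 on the log2 scale, and none passed. With equal library sums or quantile normalization Mmp15 lay below 0 (-0.01 and -1.58e-05). Mmp17 and Mmp25, the MMPs held by a lipid anchor, were at most 0.418 and 0.0833 FPKM in any library and were not tested.

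Of 17 secreted MMPs 5 were tested, and none passed. Mmp19, a basement membrane protease, was the most abundant, at 21.4, 23.9 and 22.1 FPKM in controls 1 to 3 and at 22.5, 26.8 and 24.4 FPKM in BHB 1 to 3. BHB 2 and BHB 3 lay above all controls and BHB 1 among them. Its log2 fold change was 0.12 (95% interval -0.05 to 0.29, limma adjusted p = 0.890), with 0.06 without BHB 2 and 0.18 without BHB 1. Mmp2, the gelatinase activated by Mmp14 with Timp2, stood at 20.9, 22.4 and 21.3 FPKM in controls and at 19.6, 21.9 and 22.5 FPKM with BHB. Its groups overlapped fully, and the fitted log2 difference was -0.01 (95% interval -0.16 to 0.13; adjusted p = 0.981 in limma).

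The other tested secreted genes were Mmp11 (stromelysin 3), at means of 16.0 and 16.2 FPKM in controls and BHB, Mmp23, counted here as secreted, at 3.44 and 3.60 FPKM, and Mmp28 (epilysin), at 2.80 and 2.63 FPKM. Mmp9, the inducible gelatinase, stayed under the minimum, at 0.841, 0.614 and 0.599 FPKM in controls and at 0.447, 0.543 and 1.03 FPKM with BHB. BHB libraries held both the lowest and the highest Mmp9 value. The neutrophil collagenase Mmp8 and the genes Mmp1b, Mmp20 (enamelysin) and Mmp27 were listed at 0 throughout, as were the 4 genes named above, which makes 8 secreted MMPs at 0.

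Of the ADAM family 8 genes were tested, none passed, and 7 of the 8 lay below 0. Adam9, a widely expressed sheddase, stood at 43.5, 45.0 and 46.2 FPKM in controls 1 to 3 and at 44.2, 42.6 and 44.7 FPKM in BHB 1 to 3. Adam10, the main α-secretase of the amyloid precursor protein and the protease that first cuts ligand-bound Notch, stood at 40.0, 40.5 and 43.5 FPKM in controls and at 41.9, 38.4 and 36.5 FPKM with BHB. BHB 2 and BHB 3 lay below all controls in Adam10, and BHB 1 lay among them. The log2 fold changes were -0.03 for Adam9 (95% interval -0.14 to 0.07) and -0.09 for Adam10 (-0.23 to 0.05), with a limma adjusted p of 0.936 and 0.898. For Adam10 it was -0.14 without BHB 1, -0.04 without BHB 3 and -0.05 without control 3.

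Adam17 (TACE), which releases tumour necrosis factor and ligands of the EGF receptor, is given here outside the rule for named genes. It stood at 24.4, 22.8 and 22.5 FPKM in controls 1 to 3 and at 23.5, 22.7 and 23.3 FPKM in BHB 1 to 3. The BHB libraries lay inside the range of the controls, and the fitted log2 difference was -0.004 (95% interval -0.12 to 0.11; adjusted p = 0.995 in limma). Adam15, which binds integrins, had means of 33.3 and 35.2 FPKM in controls and BHB, Adam12 (meltrin α) had 18.8 and 18.5 FPKM, and Adam19 (meltrin β) had 8.58 and 8.25 FPKM. Adam8 was at the edge of the minimum, with 0.992 and 0.959 FPKM.

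Adam23, Adam22 and Adam11 encode ADAM proteins of the nervous system that lack an active protease and bind LGI proteins. Adam23 stood at 8.45, 8.93 and 9.20 FPKM in controls 1 to 3 and at 8.47, 8.79 and 8.79 FPKM in BHB 1 to 3, and the fitted log2 difference was -0.03 (95% interval -0.16 to 0.11; adjusted p = 0.964 in limma). Its libraries overlapped. Adam22 lay between 0.718 and 1.04 FPKM and Adam11 between 0.427 and 0.629 FPKM over the 6 libraries, and neither was tested. A further 12 Adam genes were listed at 0 throughout, among them Adam2, Adam18, Adam24 and Adam32 of the male germ line and Adam7 of the epididymis.

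**Figure D2:**
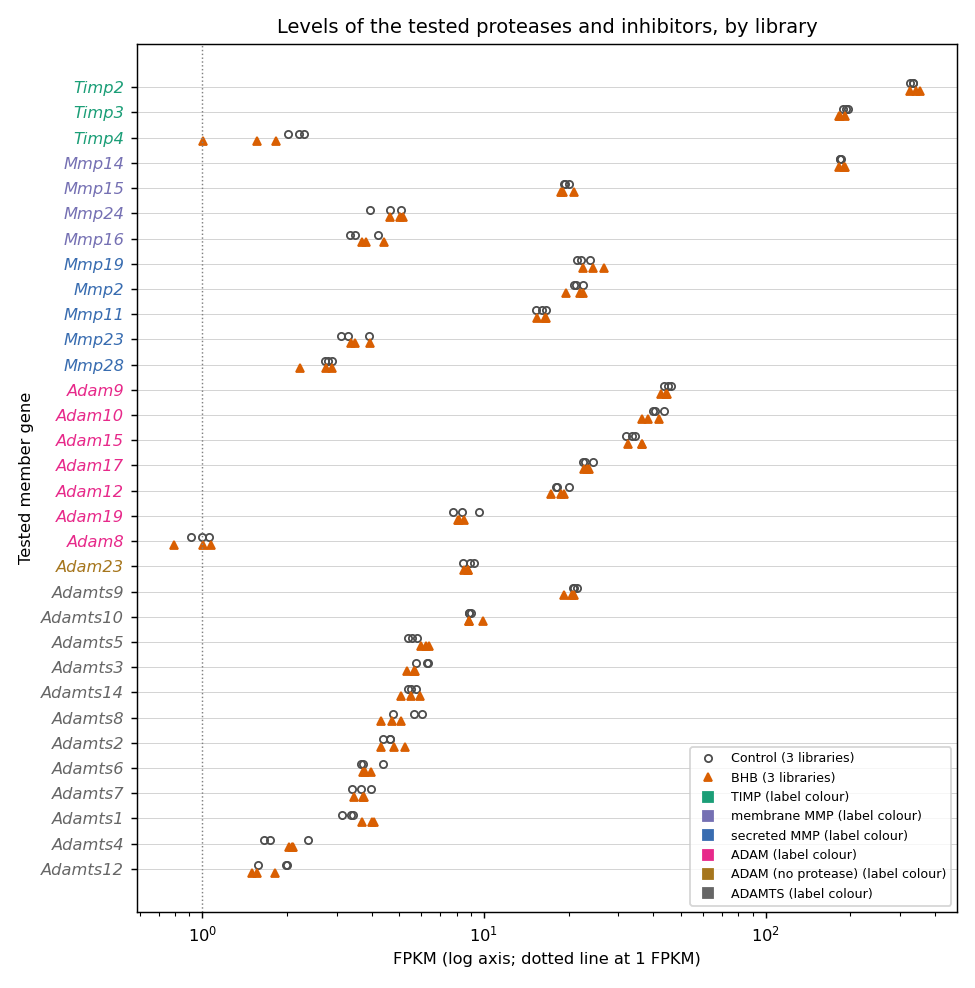
FPKM (log axis) of the 32 tested members in each library, with controls as open circles and BHB as triangles, 3 libraries each, and gene labels coloured by family. Timp2, Timp3 and Mmp14 sit above 180 FPKM, and the groups overlap in all but Timp4, Adamts1, Adamts5 and Adamts3.

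ADAMTS genes held 3 of the 4 tested members whose groups did not overlap. Groups did not overlap in 4 of the 32 tested members (12.5%), against 10.9% of all tested genes, so the share was near the background. Unadjusted p was under 0.05 in 2 members (6.25%), Timp4 and Adamts1, against 5.59% of all tested genes. This count was 0 without control 1, 4 without BHB 1 and 1 without BHB 3. None of the 12 tested ADAMTS genes passed in limma over all genes tested.

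Adamts1, a protease of versican and aggrecan, stood at 3.14, 3.43 and 3.37 FPKM in controls 1 to 3 and at 3.999, 3.68 and 4.07 FPKM in BHB 1 to 3. All BHB libraries lay above all controls. The means were 3.31 ± 0.157 and 3.92 ± 0.207 FPKM (SD, n = 3 each), a ratio of 1.18. The log2 fold change of 0.19 (SE 0.0721, 95% interval 0.02 to 0.35) had an unadjusted p of 0.0304 and a limma adjusted p of 0.881.

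Adamts5, the main aggrecanase in mouse cartilage, stood at 5.78, 5.36 and 5.55 FPKM in controls and at 5.97, 6.21 and 6.36 FPKM with BHB, and all BHB libraries were higher. Its log2 fold change was 0.13 (95% interval -0.02 to 0.28, limma adjusted p = 0.881). Adamts3, which cuts procollagen and reelin, stood at 6.33, 5.73 and 6.29 FPKM in controls and at 5.34, 5.70 and 5.65 FPKM with BHB, and all BHB libraries were lower, control 2 and BHB 2 by a narrow margin. Its log2 fold change was -0.12 (95% interval -0.27 to 0.04, limma adjusted p = 0.890).

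**Figure D3:**
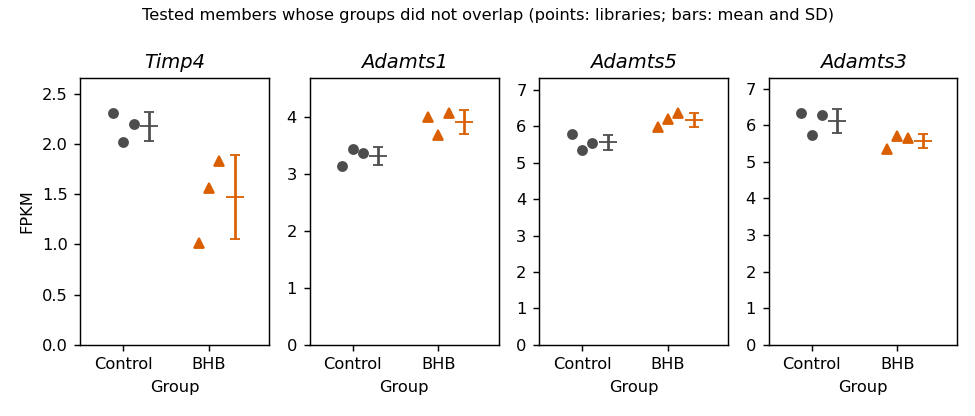
FPKM in each library for the 4 tested members whose control and BHB libraries did not overlap, with the mean and SD of 3 libraries beside the points and axes from 0. Timp4 and Adamts3 are lower and Adamts1 and Adamts5 higher with BHB, and none passed in limma over all genes tested.

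Adamts9, a secreted protease of versican and aggrecan, was the most abundant of its family, at 21.5, 20.7 and 20.9 FPKM in controls 1 to 3 and at 19.3, 20.6 and 20.9 FPKM in BHB 1 to 3. BHB 1 was the lowest library, BHB 2 also lay below the controls, and BHB 3 lay among them. Adamts10, a protein linked to fibrillin microfibrils, stood at 8.83, 8.99 and 8.86 FPKM in controls and at 8.83, 9.92 and 8.85 FPKM with BHB, where BHB 2 alone was high. The log2 fold changes were -0.05 (95% interval -0.17 to 0.07) and 0.04 (-0.10 to 0.19), with a limma adjusted p of 0.917 and 0.941. Adamts8, given here after its values were seen, stood at 6.03, 5.67 and 4.74 FPKM in controls and at 5.10, 4.30 and 4.70 FPKM with BHB, with control 3 among the BHB libraries (log2 fold change -0.18, 95% interval -0.40 to 0.04, limma adjusted p = 0.890).

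By role, the procollagen peptidases Adamts2 and Adamts14 had means of 4.56 and 5.54 FPKM in controls and 4.78 and 5.50 FPKM with BHB. Adamts7 and Adamts12, which cut cartilage oligomeric matrix protein, had 3.67 and 1.85 FPKM in controls and 3.64 and 1.63 FPKM with BHB. The aggrecanase Adamts4 had 1.93 and 2.07 FPKM, and Adamts6, which acts on the fibrillin matrix, 3.92 and 3.83 FPKM. None of these 6 passed, and the groups overlapped in each.

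Adamts13 and Adamts16, too low for the test, had libraries that did not overlap, and they are named because of those values. Adamts13, the von Willebrand factor protease, stood at 0.0910, 0.1002 and 0.167 FPKM in controls 1 to 3 and at 0.0400, 0.0467 and 0.0357 FPKM in BHB 1 to 3. Adamts16 stood at 0.0497, 0.0609 and 0.0217 FPKM in controls and at 0.0123, 0 and 0 FPKM with BHB. All BHB libraries were lower in both. These were 2 of 19 untested members above 0, or 10.5%, against 8.01% of the 5296 untested genes above 0, and at such levels single reads can set a value.

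**Figure D4:**
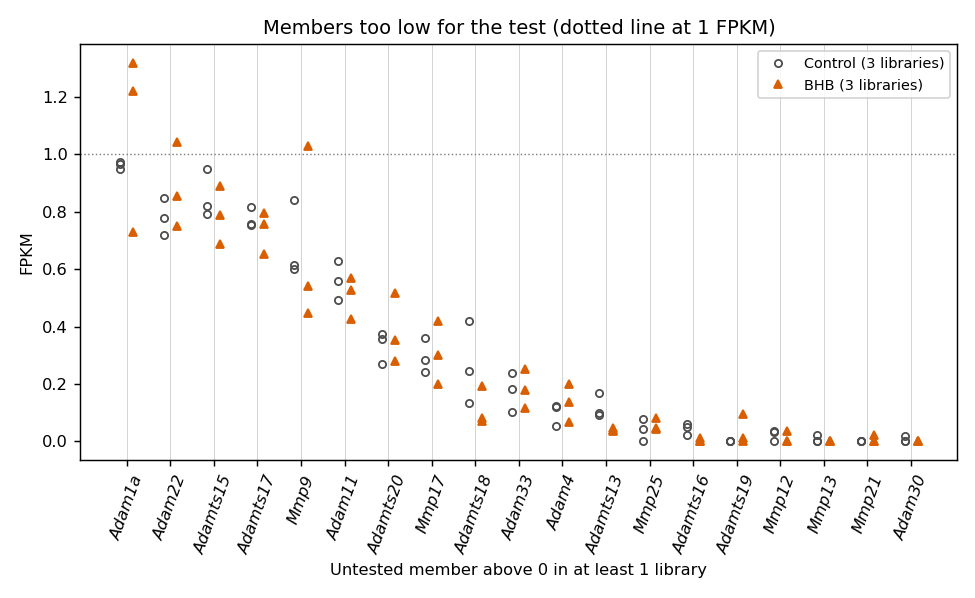
FPKM in each library of the 19 members that were above 0 in at least 1 library but were not tested, with controls as open circles and BHB as triangles, 3 libraries each. Adam1a reaches 1.32 FPKM in BHB 3, Adam22 and Mmp9 pass 1 FPKM in that library alone, and the other genes stay under 1 FPKM.

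Over the 32 tested members, 14 log2 fold changes lay above and 18 below 0, with a median of -0.01 and an SD of 0.103. Over all tested genes 51.5% lay above 0, the median was 0.003 and the SD 0.121. Of the 9 tested Mmp genes 7 lay above 0 (median 0.03), and of the 8 tested Adam genes 1, Adam15, did (median -0.03). For ADAMTS genes it was 5 of 12, with a median of -0.01.

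Intervals were narrower in the 13 members at a mean of 10 FPKM or more, each for a single gene and from the scatter of these libraries alone. Their ratios of means ran from 0.941 (Adam10) to 1.09 (Mmp19), and their 95% intervals from -0.23 to 0.29 on the log2 scale. The 19 less abundant tested members had wider intervals, from -0.67 (Timp4) to 0.35 (Adamts1).

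**Figure D5:**
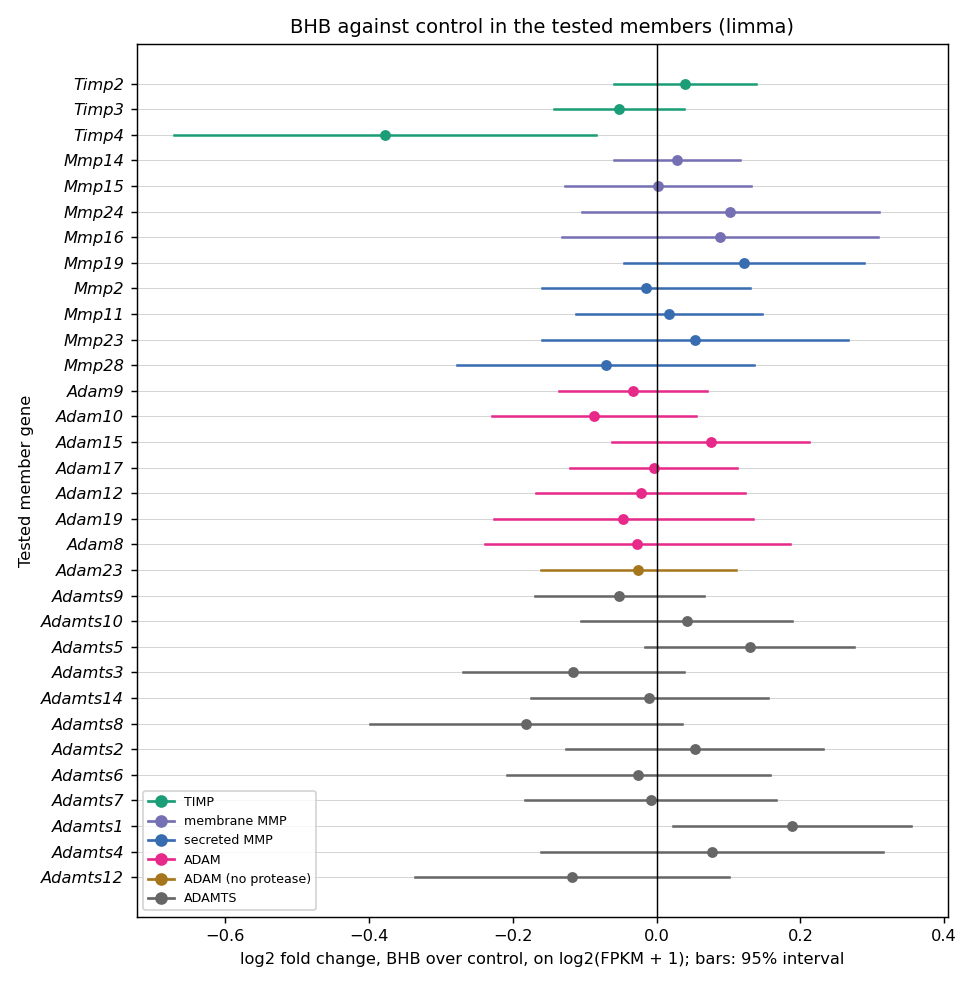
Log2 fold change of BHB over control (points) with 95% intervals from limma (bars) for the 32 tested members, coloured by family, on the log2(FPKM + 1) scale. Intervals leave out 0 in Timp4 and Adamts1 alone, and neither passed after adjustment over all genes tested.

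Summed over family members, the TIMP transcripts taken here, Timp2, Timp3 and Timp4, were at 533.3, 523.9 and 520.4 FPKM in controls 1 to 3 and at 509.9, 534.5 and 538.7 FPKM in BHB 1 to 3. MMP transcripts were at 278.7, 280.9 and 278.3 FPKM in controls and at 275.9, 290.6 and 291.3 FPKM with BHB. The ratio of the TIMP to the MMP sum was 1.91, 1.87 and 1.87 in controls and 1.85, 1.84 and 1.85 with BHB, lower in all 3 BHB libraries (means 1.88 and 1.85). ADAM sums were 183.2, 181.6 and 182.9 FPKM in controls and 181.2, 178.3 and 181.2 FPKM with BHB, also without overlap, and ADAMTS sums overlapped, at 73.2 to 75.3 and 71.2 to 74.6 FPKM. The Timp2 share of the TIMP sum was 62.4% to 63.6% in controls and 63.8% to 65.7% with BHB, without overlap. Sums of TIMPs, MMPs, secreted MMPs, membrane-bound MMPs and all proteases overlapped. So did the Mmp14 share of the MMP sum and the ratio of Timp2 to Mmp14. The TIMP sum is mostly Timp2 and Timp3 and the MMP sum mostly Mmp14, and all sums and ratios are given without a test. Of single tested genes, 10.9% had groups that did not overlap, and no such share was made for sums or ratios.

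Partners, activators and substrates of the proteases were read from 7 lists of other genes, of which 40 of 56 symbols were tested. None passed in limma, 28 lay above and 12 below 0, and 4 had an unadjusted p under 0.05 (10%). Over all tested genes 51.5% lay above 0 and 5.59% had such a p. In the ADAM10 and ADAM17 partners, 0 of 7 passed and 5 lay above 0. Tspan5, a tetraspanin that escorts ADAM10, was the most abundant at 31.1 and 30.9 FPKM in controls and BHB. Tspan14, another such tetraspanin, stood at 17.1, 17.9 and 19.7 FPKM in controls and at 20.2, 21.3 and 19.7 FPKM with BHB, with control 3 among the BHB libraries (log2 fold change 0.15, limma adjusted p = 0.881).

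Activators of proenzymes, namely the plasminogen system with its inhibitors and the proprotein convertases, had 0 of 9 tested genes past the test and 7 above 0. Serpine2, an inhibitor of thrombin and plasminogen activators, was the most abundant at 66.2 and 67.9 FPKM.

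Further inhibitors had 0 of 4 tested past the test and 1 above 0, with A2m (α2-macroglobulin) the most abundant at 10.6 and 10.5 FPKM. Of ADAMTS-like proteins 0 of 4 passed and 2 lay above 0, led by Adamtsl3 at 22.7 and 23.4 FPKM. Of astacin proteases 0 of 3 passed and 3 lay above 0, led by the procollagen C-proteinase gene Bmp1 at 45.2 and 45.3 FPKM. Of the proteoglycans that ADAMTS enzymes cut 0 of 3 passed and 2 lay above 0, led by neurocan, Ncan, at 838.7 and 846.0 FPKM.

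Membrane proteins shed by ADAM proteases had 0 of 10 tested past the test and 8 above 0. Cdh2 (N-cadherin), an ADAM10 substrate, was the most abundant at 264.0 and 258.2 FPKM. Hbegf, an EGF receptor ligand released by ADAM proteases, stood at 42.9, 42.7 and 40.8 FPKM in controls 1 to 3 and at 49.1, 52.4 and 49.2 FPKM in BHB 1 to 3, above all controls (log2 fold change 0.25, unadjusted p = 7.15e-04, limma adjusted p = 0.632). Tnfrsf1a, the TNF receptor shed by ADAM17, stood at 60.4, 59.2 and 56.8 FPKM in controls and at 61.2, 64.6 and 64.0 FPKM with BHB, also without overlap (0.10, limma adjusted p = 0.881). The groups of Cd44, at means of 128.8 and 132.9 FPKM, and of Cx3cl1 did not overlap either, while those of the other tested genes of this list did. Over all tested genes, 10.9% had groups that did not overlap. Cx3cl1 (fractalkine), cut by ADAM10 and ADAM17 and given here after its values were seen, stood at 7.80, 5.42 and 2.43 FPKM in controls and at 8.21, 7.93 and 7.94 FPKM with BHB. Its controls were widely spread. Its log2 difference of 0.64 (adjusted p in limma = 0.881) was 0.94 without control 1, 0.72 without control 2 and 0.26 without control 3.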

How the data were processed

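Poly(A) RNA of 3 control and 3 BHB libraries was measured, and the deposited file holds FPKM for each gene and library, made by the authors. The submitters' processing notes name bcl2fastq 2.0, HISAT2, StringTie, DESeq2 and the build rn6, with no roles or settings, while annotation and strand setting are not stated there. Replicates were not pooled and no column of other samples was present (0). Values were transformed as log2(FPKM + 1), a gene was tested if 3 or more of 6 libraries reached 1 FPKM (12373 genes), and limma 3.58.1 in R 4.3.3 (lmFit, eBayes with an intensity trend, two-sided) gave Benjamini-Hochberg adjusted p over all of them, with a threshold of 0.05. The log2 scale with a pseudocount understates changes of low genes. The script was tested on simulated data drawn with normal scatter and this fit's own variances, which checks the code alone.

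Named members were those with an unadjusted p under 0.05, the 2 most abundant tested members of each role group, and untested members without overlap at a mean of at least 0.3 FPKM, of which there were 0. Of other pathway genes, those with an unadjusted p under 0.05 and the most abundant of each list are named, except 1 that is not reported here. Adamts3 and Adamts5 meet none of these rules and are given by library because their values, once seen, did not overlap. Others are named with their levels or as chosen after their values were seen. The members, lists and motifs were chosen with earlier results of these data known. Adam genes were divided by textbook role. Of the 32 tested members 16 had values with more than 6 decimals, against 57.4% of tested genes, and how such values were made was not tested. Leaving out a library kept the genes tested.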

Additional observations from a re-analysis of the deposited data

How the results depend on the processing

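No member was called in any of the 16 alternatives (0 in limma each time, where 0 to 5 had an unadjusted p under 0.05). That last count, 2 as reported, was 5 without the FPKM minimum, where Adamts5, Adamts13 and Adamts16 joined Timp4 and Adamts1 among 71 tested, 1 with the replicate block, and 0 to 4 when a library was left out. It was 0 without control 1, 4 without BHB 1 and 1 without BHB 3. Without the intensity trend 4 genes were called over all genes tested, and 2 with the replicate block, against 7; the cause was not tested. Same-numbered libraries did not all pair (correlations of deviations -0.0899, 0.164 and -0.151, and of same-numbered libraries only control 2 and BHB 2 correlated best with each other). Across numbers, the correlation was 0.203 for control 3 with BHB 1 and 0.186 for control 1 with BHB 3. A pairing in that order was not fitted, and a shared batch was not tested.

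Of 272 values of 17 members, 260 kept their side of the threshold and their direction and 12 turned, all near 0. These were Mmp15 at -1.58e-05 and Timp2 at -0.0163 with quantile normalization, Mmp15 at -0.0138 with equal library sums and Mmp2 at 0.00460 with array weights. Leaving out a library gave -0.0421 to 0.0306 for Mmp15, -0.0523 to 0.0426 for Mmp2, -0.0260 to 0.0295 for Adam17 and -0.00826 to 0.0675 for Adamts10. The members' median log2 fold change ran from -0.0334 to 0.0161. The depth of the libraries is unknown, which limits the members under 1 FPKM most.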
